A study of Mus musculus with 3 samples.

Results

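Complement components and their receptors were followed as 8 genes of 32285 in the count matrices, chosen by symbol: *C1qa*, *C1qb*, *C1qc*, *C3*, *Cfb*, *Cfp*, *C3ar1* and *C5ar1*. Each symbol names 1 row of every matrix, so all 8 were found. The cells were murine bone marrow derived macrophages (BMDMs), which are macrophages grown from bone marrow in medium conditioned by L929 cells, from female C3H/HeN mice of 6 to 8 weeks. They received PBS (Ctrl, labelled UI) or 1 µg/mL of lipoproteins purified from *Borrelia burgdorferi* (*Bb*LP), the Lyme disease spirochete, and were collected after 1 hour (library LP1) or after 4 hours (library LP4). Ctrl cells were collected at 4 hours, so LP1 has no control of its own time. Each condition is 1 single-cell library in which the cells of 3 wells were pooled, the bone marrow of the mice had been pooled per the labels, and BMDMs stand for resident tissue macrophages only as a cultured model. With 1 library per condition there was no replicate and no test between conditions, and every interval below is a 95% interval that covers counting error only.

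Complement is a cascade of plasma proteins that tags microbes and dying cells for uptake. C1q, built from A, B and C chains, starts the classical pathway when it binds antibody on a surface, and macrophages are among its main sources. C3 is the central protein that all pathways cleave, factor B (*Cfb*) and properdin (*Cfp*) form and stabilise the alternative pathway convertase that cleaves it, and the released fragments C3a and C5a act on cells through the receptors C3AR1 and C5AR1.

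The 3 C1q genes lie side by side on the minus strand of mouse chromosome 4 (GRCm38, also called mm10): *C1qb* (ENSMUSG00000036905) from 136880129 to 136886187, *C1qc* (ENSMUSG00000036896) from 136889804 to 136893065 and *C1qa* (ENSMUSG00000036887) from 136895917 to 136898803. The cluster spans 18675 bases, with 3616 bases between *C1qb* and *C1qc* and 2851 between *C1qc* and *C1qa*. RefSeq promoter windows, 250 bases before and 50 after the start site, were found for 6 of the 8 genes (GRCm38.p6, reference strain C57BL/6J). No window was found for *C1qa* or *Cfb*. The windows of *C1qb* (chr4:136886151-136886450, minus strand) and *C1qc* (chr4:136892865-136893164, minus strand) are shown because these neighbours are parts of 1 protein but differed in their levels. The window of *C3* (chr17:57228087-57228386, minus strand) is shown as that of a gene at like levels in Ctrl and LP4. Capitals mark the letters GAGGAA, the core bound by the macrophage factor PU.1, or their reverse complement in *C1qb* and *C1qc*, and TTNNGNAA, a C/EBP motif, in *C3*.

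C1qb: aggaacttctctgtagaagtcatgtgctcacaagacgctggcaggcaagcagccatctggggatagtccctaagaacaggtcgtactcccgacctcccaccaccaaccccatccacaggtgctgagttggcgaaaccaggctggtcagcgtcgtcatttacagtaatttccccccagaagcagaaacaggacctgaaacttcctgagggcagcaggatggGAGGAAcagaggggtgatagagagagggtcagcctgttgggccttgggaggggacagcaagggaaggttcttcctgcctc
C1qc: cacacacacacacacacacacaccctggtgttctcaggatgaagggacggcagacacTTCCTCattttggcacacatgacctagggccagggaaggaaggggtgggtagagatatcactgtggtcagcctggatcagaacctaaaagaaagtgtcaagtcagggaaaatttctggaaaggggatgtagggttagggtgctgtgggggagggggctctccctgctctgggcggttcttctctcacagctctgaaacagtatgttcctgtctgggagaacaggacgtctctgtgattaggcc
C3: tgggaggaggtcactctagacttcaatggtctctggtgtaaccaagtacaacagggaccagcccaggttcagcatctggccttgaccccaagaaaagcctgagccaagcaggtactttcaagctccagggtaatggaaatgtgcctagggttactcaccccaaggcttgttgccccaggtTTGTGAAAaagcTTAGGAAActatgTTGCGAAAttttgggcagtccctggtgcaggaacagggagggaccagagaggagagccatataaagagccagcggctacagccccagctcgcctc

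GAGGAA was in the windows of *C1qb*, *C1qc* and *Cfp*, and in 28.3% of the 32851 promoter windows of that length, searched on both strands. TTNNGNAA was in those of *C1qc*, *C3* and *C5ar1* and in 40.7% of all windows. *C3* held it at 3 places, starting 70, 58 and 45 bases before its start site, which do not overlap one another. An NF-kB motif was in 5 of the 6 windows and in 50.8% of all windows, often as overlapping matches on both strands. TGANTCA (AP-1) was in that of *C3ar1* and in 7.81% of all. An IRF motif and TTCNNNGAA (GAS) were in none of the 6 windows, against 3.44% and 8.30% of all. The letters describe these windows only, and no window of *C1qa* or *Cfb* was searched.

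The deposited counts hold 35749924 (Ctrl), 52773906 (LP1) and 64787139 (LP4) UMIs (unique molecular identifiers, each 1 captured RNA). Barcodes with over 500 UMIs, over 500 genes and under 5% mitochondrial UMIs were kept, leaving 6071 Ctrl, 5065 LP1 and 4670 LP4 cells with a median of 5133, 9343 and 11784 UMIs. Between 4 and 10 barcode sequences were shared by any pair of libraries. All 8 macrophage markers had UMIs in every library, with *Csf1r* seen in 94.5% to 96.2% of cells, but their summed level in the libraries, in time order from Ctrl, was 20258, 18546 and 15726 CPM. The median mitochondrial share moved with the conditions too, from 1.97% in Ctrl to 2.84% in LP1 and 3.17% in LP4. Levels are given as CPM, the UMIs of a gene per 1000000 UMIs of the kept cells of a library. A count at the 3' end scores each RNA once, so CPM is not per length, and it is compared below between libraries and cells for the same gene and not between genes.

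*Cfb* was the member farthest from Ctrl, at 4 hours. It was then 10.7 times higher, while *C1qa* and *C1qb* were lower by more than 2-fold. *C1qc*, *Cfp*, *C3ar1* and *C5ar1* were lower by 1.13 to 1.28 times, and *C3* was within its counting error of Ctrl. With TMM or median-of-ratios scaling, explained below, those 4 genes lay nearer to Ctrl, and *C5ar1* slightly above it with median of ratios. After 1 hour 0 of the 8 genes were past 2-fold, where 1.27% of 8103 genes were (0.765% higher and 0.506% lower), counting genes that reached 10 CPM in any library. After 4 hours 1 member was at least 2-fold higher than Ctrl and 2 were at least 2-fold lower, where 10.5% and 9.95% of the 8103 genes were, 20.4% in all. Those 2 encode parts of 1 protein. The members had a median log2 ratio to Ctrl of -0.30 (LP1) and -0.30 (LP4), against -0.02 and -0.08 for all these genes. All 8 members reached 10 CPM in a library, *Cfb* only through LP4.

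**Figure D1:**
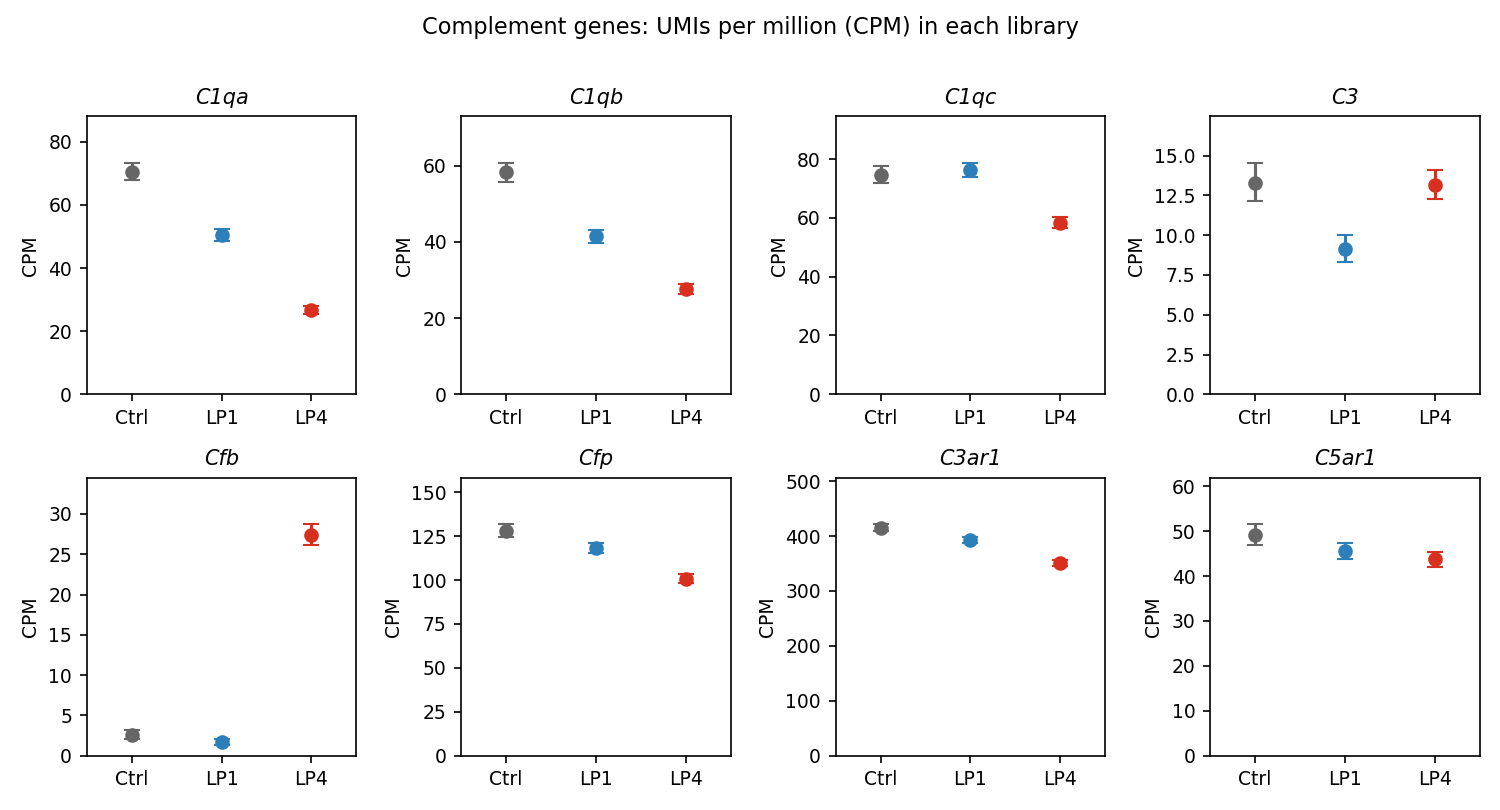
CPM of each complement gene (vertical axes, each from 0) in the Ctrl, LP1 and LP4 libraries; points are the library's value and bars the exact Poisson 95% interval. *C1qa* and *C1qb* step down from Ctrl to LP1 to LP4, *C1qc* is at 74.6, 76.4 and 58.3 CPM, and *Cfb* stands out in LP4 at 27.4 CPM.

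*C1qa*, the A chain of C1q, had 2519 (Ctrl), 2644 (LP1) and 1637 (LP4) UMIs, or 70.6 (67.9 to 73.4), 50.4 (48.5 to 52.3) and 26.7 CPM (25.4 to 28.0). The level was highest in Ctrl and lowest in LP4, and the 3 intervals did not overlap. Its log2 ratio was -0.49 (-0.57 to -0.41) for LP1 over Ctrl and -1.40 (-1.495 to -1.314) for LP4 over Ctrl, a level 2.65 times lower. *C1qb*, the B chain, had 2078, 2174 and 1693 UMIs, or 58.2 (55.7 to 60.8), 41.4 (39.7 to 43.2) and 27.6 CPM (26.3 to 28.9). It followed the same order, with log2 ratios of -0.49 in LP1 and -1.08 (-1.17 to -0.99) in LP4, and the latter interval reaches to under 2-fold. When libraries were scaled by TMM or median of ratios, which reset their totals from all genes, *C1qb* was no longer past 2-fold, which left 1 member higher and 1 lower, and its LP4 ratio came nearest to 0 at -0.87.

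*C1qc*, the C chain, did not keep step with the other chains. It had 2662 (Ctrl), 4008 (LP1) and 3582 (LP4) UMIs, or 74.6 (71.8 to 77.5), 76.4 (74.0 to 78.8) and 58.3 CPM (56.4 to 60.3). Ctrl and LP1 overlapped in their intervals and LP4 lay below both. The log2 ratio was 0.03 (-0.04 to 0.11) in LP1 and -0.35 (-0.43 to -0.28) in LP4. It was 0.11 and -0.19 with TMM, and 0.11 and -0.15 with median-of-ratios scaling.

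The ratio of UMIs between chains within a library does not depend on how libraries are scaled. *C1qc* UMIs per *C1qa* UMI numbered 1.06 (Ctrl), 1.52 (LP1) and 2.19 (LP4). The change in this ratio was 0.52 on the log2 scale (0.41 to 0.63) from Ctrl to LP1 and 1.05 (0.93 to 1.17) from Ctrl to LP4. *C1qc* to *C1qb* changed by 0.53 (0.41 to 0.64) in LP1 and 0.72 (0.61 to 0.84) in LP4. *C1qb* to *C1qa* was alike in Ctrl and LP1, at 0.825 and 0.822, and was 1.03 in LP4, a log2 change from Ctrl of 0.33 (0.20 to 0.46). Relative to the A and B chains, the C chain transcript was thus higher than in Ctrl at both times.

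**Figure D2:**
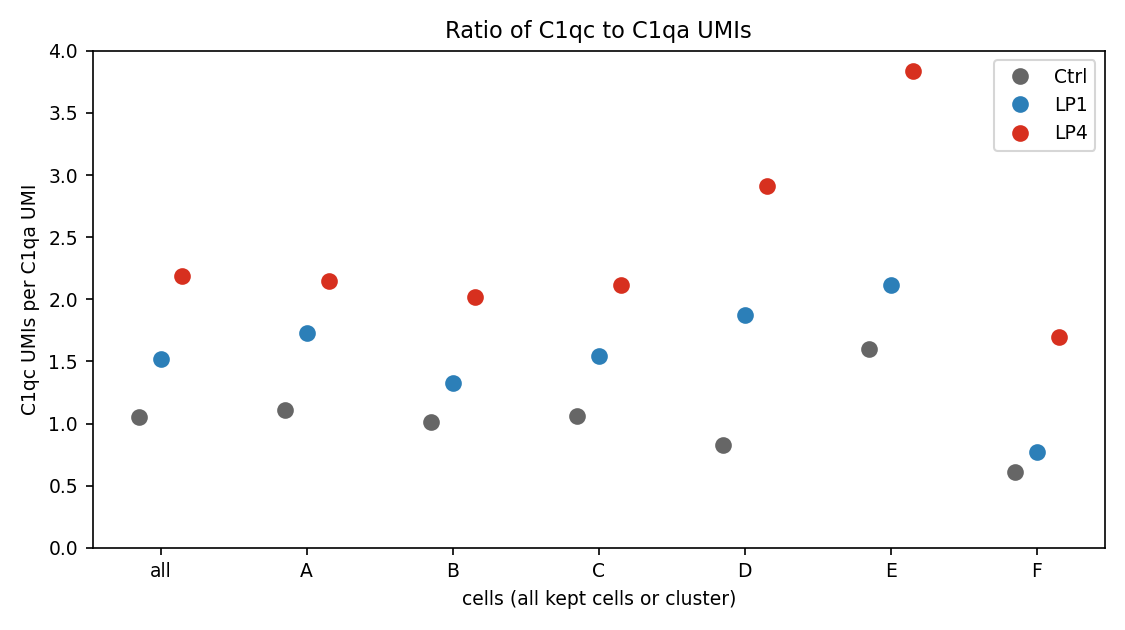
UMIs of *C1qc* per UMI of *C1qa* (vertical axis, linear from 0) in all kept cells and in clusters A to F (horizontal axis), with 1 point per library. In all kept cells and in each of the 6 clusters the order is Ctrl, LP1, LP4 from low to high, from 1.06 to 2.19 in all kept cells.

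The *C1qc* to *C1qa* shift was also seen inside groups of cells. Cells were clustered without any complement gene and without genes that differed by 1.5 times or more between libraries, which gave 9 clusters. Clusters A to D were macrophage-like, E cycling-like, F dendritic cell-like (led by MHC class II genes, with macrophage markers also present), H neutrophil-like and I stromal-like, and G, with a median of 1802 UMIs per cell, stayed unnamed. Cluster I also held macrophage markers, 5 of them each in at least 50% of its cells. The 6 clusters A to F had at least 50 cells in every library and were compared. At 4 hours the *C1qc* to *C1qa* ratio exceeded that of Ctrl in all 6, by 0.96 (cluster A) to 1.82 (cluster D) on the log2 scale, with an interval above 0 in each. The values of D rest on low levels, and the *C1qa* levels of A, D and E are set against free RNA below. In LP1 the *C1qc* to *C1qa* ratio was also higher in all 6, by 0.33 to 1.18, with 4 intervals above 0. The *C1qc* to *C1qb* ratio exceeded that of Ctrl at 4 hours by 0.18 to 1.38, with 4 of the 6 intervals above 0 and those of E and F holding 0.

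C1q transcripts were unevenly spread over the clusters. In Ctrl, *C1qa* stood at 128 CPM in cluster B and 124 CPM in F, whose intervals overlap, and at 21.6 CPM in D, a 5.94-fold range. Cluster B is led by *Egr3*, *Slc9a9*, *Cd86* and *Apoe*, and D by *Mgll*, a lipid enzyme gene, and by *Itgb3*, *Mmp9* and *Ctsk*, genes known from osteoclasts and matrix breakdown. D was the lowest of the 6 clusters for all 3 chains in every library, and B or F the highest. At 4 hours *C1qa* was below Ctrl in all 6 clusters, with log2 ratios from -1.82 (D) to -0.94 (F). *C1qb* was lower in all 6 as well, from -1.38 (D) to -0.03 (F), with 4 of the 6 intervals below 0. *C1qc* lay between -0.47 (B) and 0.54 (F), and only in A and B was its interval below 0.

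Cluster shares also differed, with B at 31.9% (Ctrl), 27.5% (LP1) and 11.5% (LP4) of cells and C at 13.7%, 14.2% and 33.9%. The leading genes of C include *Serpinb2*, *Cxcl5*, *Mt2*, *Il4ra* and *Cxcl3*. The paper lists *Mt2*, *Il4ra* and *Cxcl3* as upregulated in LP4 over uninfected cells. Whether B and C hold the same kind of cell in each library was not tested, and their ratios share this limit. With the cluster makeup of Ctrl applied to every library, an alternative added after the data were seen, LP4 stood at log2 ratios to Ctrl of -1.38 for *C1qa*, -1.03 for *C1qb* and -0.34 for *C1qc*. These lay within the counting intervals of the ratios over all kept cells. For LP1 over Ctrl the same step gave -0.39, -0.38 and 0.11, each outside its counting interval. The macrophage marker list moved with the lower C1q levels, though not as 1 block. From Ctrl to LP1 to LP4, *Ctsd*, a large share of the sum, was at 8732, 6817 and 5350 CPM and *Csf1r* at 769, 522 and 421 CPM, while *Adgre1* was at 169, 192 and 252 CPM and *Fcgr1* at 109, 106 and 244 CPM. The part of these markers and of the higher mitochondrial share in the C1q levels was not tested. With mitochondrial and ribosomal protein genes left out of the totals, which changes only the scaling, each ratio of the 8 members stayed within its counting interval.

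**Figure D3:**
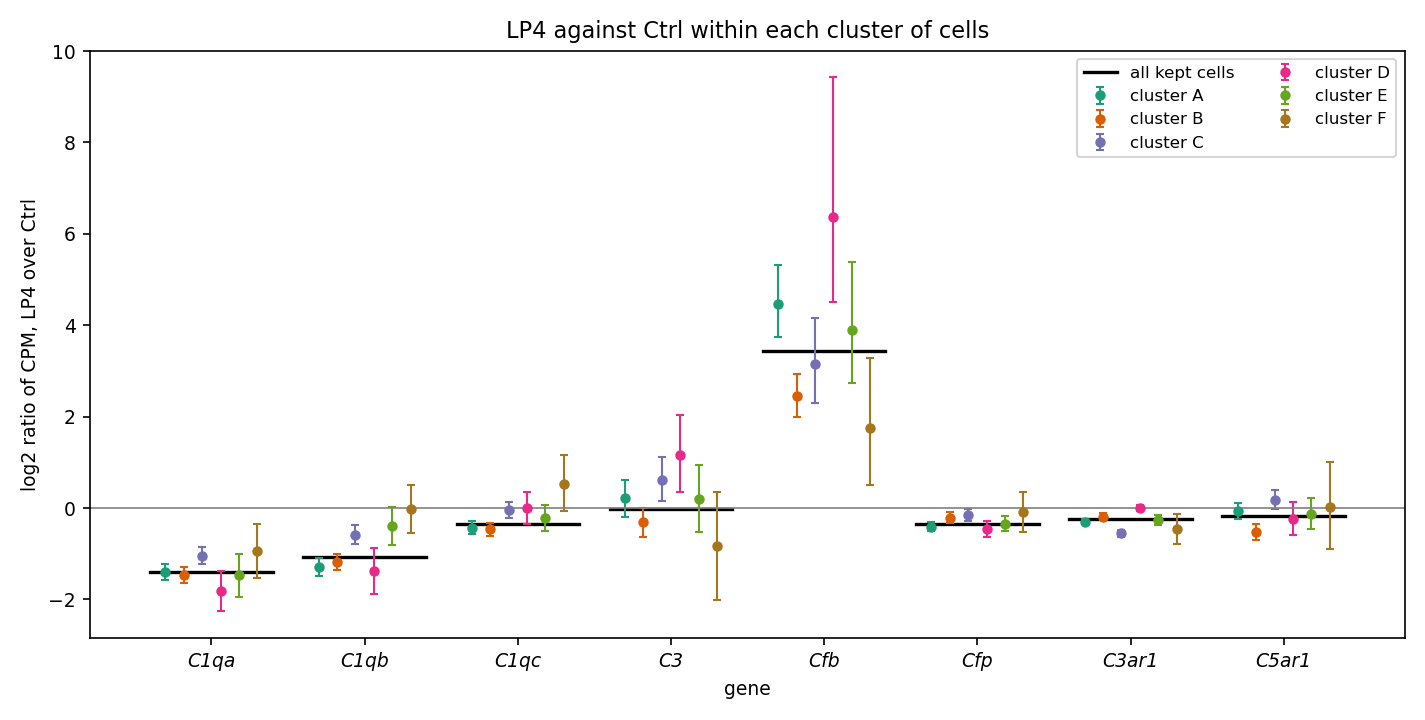
Log2 ratio of CPM in LP4 over Ctrl (vertical axis) for each complement gene (horizontal axis); coloured points are clusters A to F with exact 95% counting intervals and black lines the value over all kept cells. *C1qa* lies below 0 and *Cfb* above 0 in all 6 clusters, while *C3* lies on both sides.

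Most cells held no C1q UMI. Thinned to 2000 UMIs per cell so that depths match, with 122 (Ctrl), 13 (LP1) and 45 (LP4) shallower cells dropped, *C1qa* was seen in 8.98% of Ctrl cells (8.26 to 9.73), 7.36% of LP1 cells (6.66 to 8.12) and 4.86% of LP4 cells (4.26 to 5.52). Without thinning the shares were 16.9%, 18.7% and 15.0%, at the higher UMIs per cell of LP1 and LP4. *C1qb* was seen in 8.56%, 6.47% and 4.76% of thinned cells and in 15.5%, 17.4% and 15.1% of unthinned ones. *C1qc* was seen in 12.6% (11.8 to 13.5), 13.4% (12.5 to 14.4) and 10.6% (9.68 to 11.5) after thinning, and in 25.9%, 37.7% and 35.8% before. The shares after thinning keep the order of the CPM for all 3 chains.

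A cell with a UMI of one chain more often held another chain too, although most cells with any C1q UMI had a single chain at this depth. Of thinned Ctrl cells with a *C1qa* UMI, 33.5% also had a *C1qb* UMI, against 6.09% of those without one. In LP4 the values were 24.9% and 3.73%. All 3 chains were seen in 1.58% (Ctrl), 1.17% (LP1) and 0.692% (LP4) of thinned cells, and 1 chain alone in 15.8%, 15.1% and 12.3%. The variance over the mean of UMIs per thinned cell is 1 when UMIs are scattered over cells at random. It was 2.30 for *C1qa* and 2.10 for *C1qb* in Ctrl, and 1.505 and 1.511 in LP4. For *C1qc* it was 1.37 (Ctrl), 1.35 (LP1) and 1.41 (LP4). This measure moves with the mean, which in Ctrl and LP4 was 0.146 and 0.061 UMIs for *C1qa* and 0.131 and 0.060 for *C1qb*. Its lower values in LP4 are thus not read as a more even spread. These are descriptions over cells of 1 library each.

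Neutrophil-like cells, which should lack C1q, gave the level that free RNA could leave. The 84 neutrophil-like cells held no UMI of *C1qb* or *C1qc* in any library, and 2, 1 and 0 UMIs of *C1qa* in Ctrl, LP1 and LP4. These allow *C1qa* up to 69.1 CPM in Ctrl and 41.4 CPM in LP1 by the exact bound, and 12.5 CPM in LP4 by the limit of 3 counts for a count of 0. Each is below the level in all kept cells of that library. In Ctrl, though, the bound lies within the interval of that level, 67.9 to 73.4 CPM, so the 2 are not separated there. In clusters D and E, however, *C1qa* was below these bounds in every library, and in A in Ctrl and LP1. The counts of 0 for *C1qb* and *C1qc* allow, at 3 counts, up to 28.7 (Ctrl), 22.3 (LP1) and 12.5 CPM (LP4). In D, *C1qb* was below these limits in every library and *C1qc* in Ctrl and LP1. In E, *C1qb* was below that of Ctrl. The ratios of D include the extremes given above for *C1qa*, *C1qb* and the chain ratios. They rest on levels that cannot be told apart from free RNA with these few cells. The *C1qa* levels of E in every library and of A in Ctrl and LP1 share this limit. So do the *C1qa* ratios and *C1qc* to *C1qa* ratios of A and E that use them. By share of cells the comparison is weak: 0 of 21 thinned Ctrl cells, at a median of 3947 UMIs before thinning, had *C1qa*, which allows up to 14.3%. All thinned Ctrl cells had a median of 5194 UMIs.

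*C3* (ENSMUSG00000024164, chromosome 17, 57203970 to 57228136), the cascade's central protein, had 475 (Ctrl), 479 (LP1) and 808 (LP4) UMIs, or 13.3 (12.1 to 14.6), 9.13 (8.33 to 9.98) and 13.2 CPM (12.3 to 14.1). LP1 was the low library and Ctrl and LP4 overlapped. The log2 ratio was -0.54 (-0.73 to -0.36) for LP1 over Ctrl, -0.02 (-0.18 to 0.15) for LP4 over Ctrl and 0.53 (0.36 to 0.69) for LP4 over LP1. That of LP4 over Ctrl was 0.15 with TMM and 0.19 with median-of-ratios scaling, so it has no stable sign.

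The level of *C3* over all cells hides differences between groups of cells. In neutrophil-like cells its level from Ctrl to LP1 to LP4 was 545 (413 to 706), 461 (353 to 591) and 463 CPM (381 to 558), with overlapping intervals. Those 32, 24 and 28 cells held 57 of the 475, 62 of the 479 and 111 of the 808 *C3* UMIs of their library. Among clusters A to F it was far lower, from 2.64 CPM in D to 32.1 CPM in F in Ctrl. In LP4 against Ctrl, *C3* was higher in D, from 2.64 to 5.87 CPM with a log2 ratio of 1.15 (0.35 to 2.04), and in C, from 11.7 to 17.9 CPM with 0.62 (0.15 to 1.12). It was lower in B, from 24.8 to 19.9 CPM with -0.32 (-0.63 to -0.003), which would hold 0 under TMM or median-of-ratios scaling. The intervals of A, E and F held 0. In LP1 it was below Ctrl in all 6 clusters, with B the one whose interval lay below 0. What other clustering resolutions show of the contrast of B with C in LP4 is given at the end.

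Thinned to 2000 UMIs, *C3* was seen in 2.62% (Ctrl), 1.88% (LP1) and 2.70% (LP4) of cells, and in 61.9%, 70.0% and 53.6% of neutrophil-like cells. Without thinning the shares over all cells were 5.75%, 7.07% and 11.5%. Since neutrophil-like cells express *C3*, they give no background level for it, and the part of free RNA in its lower levels in clusters A to F was not tested. Without them, the log2 ratios of *C3* stayed within its counting intervals.

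*Cfb* (ENSMUSG00000090231, chromosome 17, 34856374 to 34862518) encodes factor B, the protease precursor of the alternative pathway. It had 91 (Ctrl), 86 (LP1) and 1683 (LP4) UMIs, or 2.55 (2.05 to 3.13), 1.64 (1.31 to 2.02) and 27.4 CPM (26.1 to 28.8). LP4 stood far above both others, and LP1 was a little below Ctrl. Its log2 ratio was 3.43 (3.12 to 3.75) for LP4 over Ctrl, a level 10.7 times higher, and 4.06 (3.75 to 4.39) for LP4 over LP1. For LP1 over Ctrl it was -0.64 (-1.08 to -0.20). In LP4 against LP1, *Cfb* was the 1 member past 2-fold, at a background of 16.3% of genes (8.59% higher and 7.75% lower). The annotation places Gm20547 over *Cfb* on the same strand; it has no row in the matrices, so reads from it could not be told apart here.

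The higher *Cfb* level was seen in every cluster compared. In LP4 it lay between 20.6 CPM (E) and 46.4 CPM (F), and the intervals of neighbours in this order overlapped. In Ctrl it lay between 0.330 CPM in D, which rests on 2 UMIs, and 13.7 CPM in F, which rests on 6. The log2 ratio of LP4 over Ctrl ran from 1.76 (0.49 to 3.29) in F to 6.37 (4.51 to 9.42) in D. It was 2.45 (2.00 to 2.93) in B, 3.15 in C, 3.90 in E and 4.47 (3.73 to 5.31) in A. The ratios ran in the reverse order of the Ctrl levels, which are their denominators, and the levels spanned 2.25-fold in LP4 against 41.6-fold in Ctrl.

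**Figure D4:**
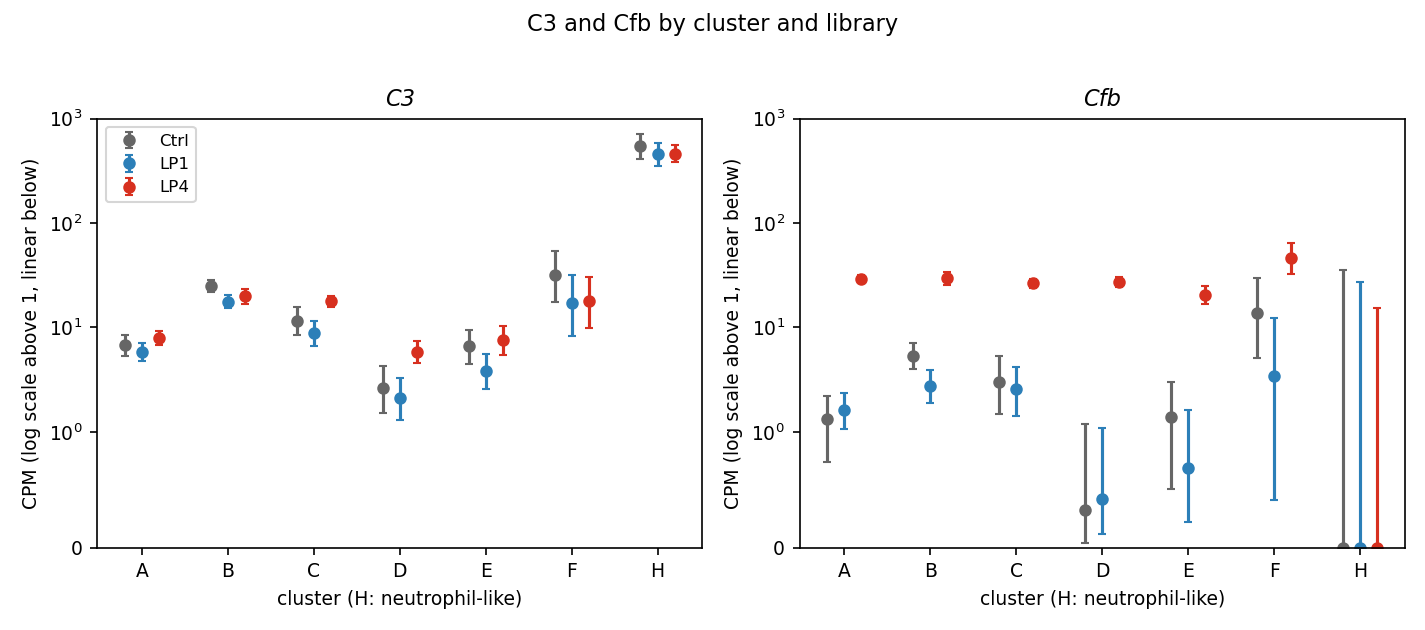
CPM of *C3* (left) and *Cfb* (right) in clusters A to F and in the neutrophil-like cluster H (horizontal axes), by library; the vertical axes are logarithmic above 1 CPM and linear below, and bars are exact Poisson 95% intervals. *C3* is near 500 CPM in H in the 3 libraries, at 461 to 545 CPM, and *Cfb* in LP4 is at 20.6 to 46.4 CPM in A to F and has no UMI in H.

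After thinning, *Cfb* was seen in 0.471% of Ctrl cells (0.313 to 0.680), 0.297% of LP1 cells (0.166 to 0.489) and 5.04% of LP4 cells (4.43 to 5.71). At full depth the shares were 1.27%, 1.46% and 20.1%. None of the 28 neutrophil-like cells of LP4 had a *Cfb* UMI, at a median of 9262 UMIs, which allows, at 3 counts, up to 10.7% of cells and a level of up to 12.5 CPM. The LP4 level of 27.4 CPM is above that bound. In Ctrl and LP1 the counts of 0 allow up to 28.7 and 22.3 CPM, so the *Cfb* levels there cannot be told apart from free RNA. The variance over the mean per thinned LP4 cell was 1.21, against 1.505 for *C1qa* in LP4, at means of 0.057 and 0.061 UMIs. In LP4 the *Cfb* UMIs were thus less bunched in a few cells than those of *C1qa*.

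*Cfp* (ENSMUSG00000001128, chromosome X, 20925454 to 20931555) encodes properdin, which stabilises the alternative pathway convertase. It had 4574 (Ctrl), 6210 (LP1) and 6185 (LP4) UMIs, or 128 (124 to 132), 118 (115 to 121) and 101 CPM (98.2 to 103). The levels were lower in that order without overlap, by little. The log2 ratios to Ctrl were -0.12 (-0.17 to -0.06) in LP1 and -0.35 (-0.40 to -0.29) in LP4. They were -0.04 and -0.18 with TMM, and -0.04 and -0.14 with median-of-ratios scaling. In LP4 the CPM ratios were below 0 in all 6 clusters, from -0.45 (D) to -0.08 (F), and 5 of the intervals excluded 0. TMM and median-of-ratios scaling raise LP4 over Ctrl by 0.17 and 0.21. The ratios of C, at -0.16, and F would then not lie below 0. *Cfp* was seen in 22.4%, 20.6% and 18.5% of thinned cells and in 47.2%, 63.0% and 64.4% of unthinned ones, with a variance over the mean of 1.04 to 1.09. Factor B builds the convertase with C3b. Over all kept cells, its transcript and that of properdin thus lay on opposite sides of Ctrl in LP4.

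*C3ar1* (ENSMUSG00000040552, chromosome 6, 122847138 to 122856161), the receptor for C3a, had 14819 (Ctrl), 20581 (LP1) and 21543 (LP4) UMIs, or 415 (409 to 422), 392 (387 to 398) and 351 CPM (346 to 356), with log2 ratios to Ctrl of -0.08 (-0.11 to -0.05) and -0.24 (-0.27 to -0.21). The order was Ctrl, LP1, LP4 from high to low, but the size of the ratios depends on scaling. They were -0.01 (LP1) and -0.07 (LP4) with TMM, and -0.007 and -0.04 with median-of-ratios scaling. In clusters, LP4 over Ctrl ran from -0.55 in C to -0.002 (-0.07 to 0.07) in D. Cluster C had the highest level in Ctrl (477 CPM) and D in LP4 (387 CPM), each overlapping A in its interval. Neutrophil-like cells held 1, 0 and 5 UMIs of it, and at most 53.3 CPM by the upper bounds. After thinning it was seen in 52.0% (Ctrl), 50.9% (LP1) and 46.0% (LP4) of cells, and before in 79.0%, 88.5% and 86.2%.

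*C5ar1* (ENSMUSG00000049130, chromosome 7, 16246743 to 16259540), the receptor for C5a that draws phagocytes to sites of complement cleavage, had 1757, 2388 and 2685 UMIs. The levels were 49.2 (47.0 to 51.6), 45.5 (43.7 to 47.4) and 43.7 CPM (42.1 to 45.4), with LP1 and LP4 overlapping. The log2 ratio to Ctrl was -0.11 (-0.20 to -0.02) in LP1 and -0.17 (-0.26 to -0.08) in LP4, and the latter turns to 0.04 with median-of-ratios scaling. It was highest in B in Ctrl (83.1 CPM) and in C in LP4 (71.1 CPM), and lowest in D in every library (14.2 to 16.8 CPM). LP4 over Ctrl was -0.52 (-0.70 to -0.34) in B and 0.18 (-0.02 to 0.40) in C. At a resolution of 0.3, 1 cluster was led by genes of both B and C, so that setting cannot show a contrast between them. There the ratio ran from -0.25 to -0.02 in the 4 clusters compared. At 0.8, with 9 clusters compared, it was lowest at -0.73 in a cluster with *Gpr141* and *Id3* among its leading genes, as in B. It was highest at 0.12 in a cluster led by *Cxcl5* and *Serpinb2*, as C is. There 2 intervals lay below 0 and none above. Neutrophil-like cells had *C5ar1* at 76.5, 193 and 70.9 CPM from 8, 26 and 17 UMIs. *C5ar1* was seen in 9.98%, 8.91% and 8.95% of thinned cells and in 21.3%, 31.4% and 35.9% of unthinned ones. Thinned to 4000 UMIs the shares were 14.5%, 15.6% and 16.2%, lowest in Ctrl and against the CPM, so no order is read from them.

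LP4 cells over the mitochondrial limit, 273 barcodes that were left out, had *C3ar1* and *C3* at levels whose intervals hold those of the kept LP4 cells, and the other members below them. *Cfb* was at 20.2 CPM (15.7 to 25.7), *C1qb* at 15.1 CPM (11.2 to 19.9) and *C3ar1* at 355 CPM (335 to 376).

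The wider complement pathway was read from a list of 54 genes set by function, which includes the 8. Of these, 17 reached 10 CPM in a library, 27 had fewer, and 10 had no UMI in any library, among them *Cfd* (factor D, which cleaves factor B), *C6*, *C8b*, *Mbl1*, *Mbl2* and *Vtn*. The 9 other genes over the limit stayed within 2-fold in every comparison. Of all 8103 genes, 1.27% (LP1 over Ctrl), 20.4% (LP4 over Ctrl) and 16.3% (LP4 over LP1) were past it. The 17 genes had a median log2 ratio to Ctrl of -0.11 (LP1) and -0.17 (LP4), against -0.02 and -0.08 for all 8103 genes.

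Among recognition proteins, *Fcna*, a ficolin that starts the lectin pathway, was at 19.5 (Ctrl), 14.3 (LP1) and 11.4 CPM (LP4), with log2 ratios of -0.45 and -0.77 (-0.93 to -0.62).

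Of the membrane regulators, *Cd59a*, which blocks the membrane attack complex, had log2 ratios of 0.13 (-0.02 to 0.28) and 0.19 (0.04 to 0.34). *Cr1l*, known as Crry, which limits C3 cleavage on cells, had 0.16 and 0.07 (-0.03 to 0.16). Neither was far from Ctrl at either time.

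Among receptors, *Itgam* and *Itgb2*, the chains of complement receptor 3, had log2 ratios in LP4 of 0.50 (0.46 to 0.54) and 0.23 (0.19 to 0.26). *Itgax*, which pairs with the same beta chain, had -0.25 (-0.31 to -0.18). *Cd93* had -0.12 in LP1 and 0.01 (-0.03 to 0.05) in LP4. *C1qbp*, listed for its binding to C1q but known mainly as a mitochondrial protein, had 0.19 (0.11 to 0.26) in LP1 and -0.39 (-0.47 to -0.31) in LP4. The alpha chain of receptor 3 was thus the receptor gene over the limit with the largest log2 ratio in LP4.

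**Figure D5:**
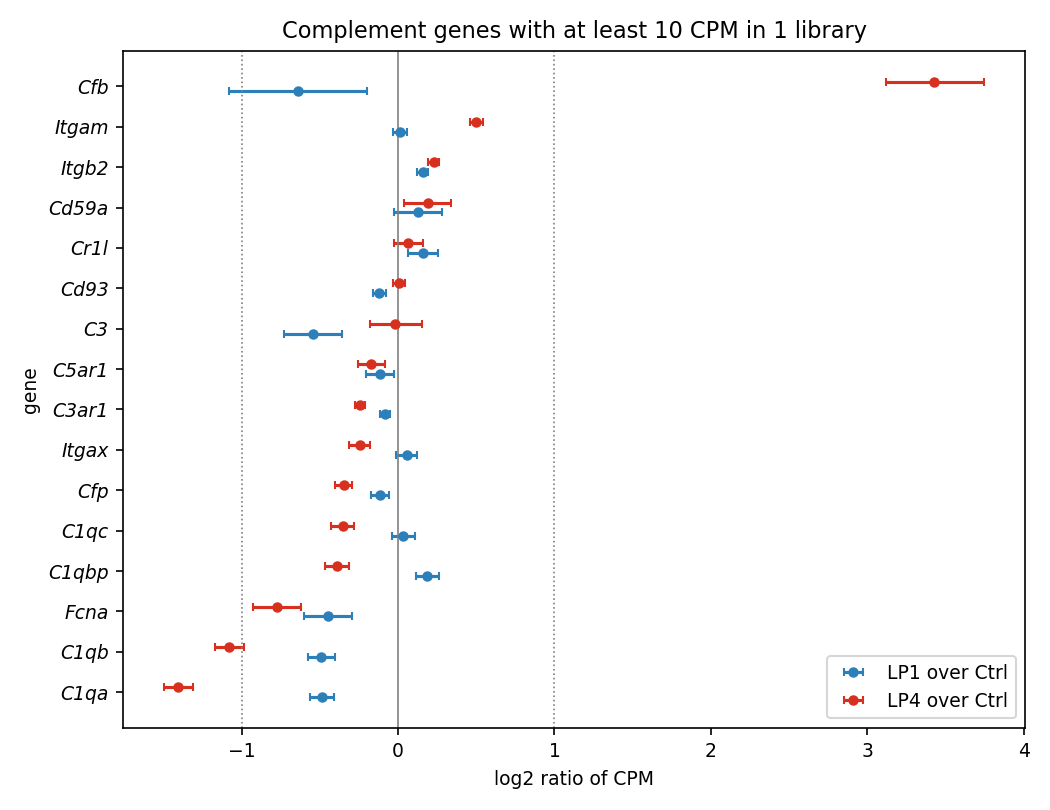
Log2 ratio of CPM (horizontal axis) over Ctrl in LP1 and LP4 for the complement genes reported here that reached 10 CPM in a library (vertical axis, ordered by LP4); bars are exact 95% counting intervals and dotted lines mark 2-fold. In LP4 *Cfb* is past the upper line and *C1qa* and *C1qb* are past the lower one.

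*C1ra*, a serine protease that C1q carries, was below the 10 CPM limit and is named after its values were seen. It was 1 of 27 listed genes with UMIs below that limit, and no share of all genes past 2-fold was taken there. It had 37 (Ctrl), 53 (LP1) and 263 (LP4) UMIs, or 1.04, 1.01 and 4.28 CPM, and its LP4 log2 ratio to Ctrl was 2.05 (1.55 to 2.58). Over whole libraries, the protease transcript and those of the C1q chains that it binds thus lay on opposite sides of Ctrl. The level of *C1ra* by cluster was not taken, so whether the same cells held both was not tested. *C2*, next to *Cfb* on chromosome 17, had 24, 30 and 56 UMIs and a log2 ratio in LP4 of 0.44 (-0.27 to 1.19).

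Likeness of pattern was measured by Pearson's r of log2(CPM + 5) over the 18 points of 6 clusters by 3 libraries, among 3623 genes that reached 50 CPM in a library. The points share libraries, and r is given as a description. *C1qa* was most like *Ndrg1* (r = 0.96), *C1qb* (0.95) and *Rab8b* (0.93), and *C1qb* most like *Fam129a* (0.95), *C1qa* (0.95) and *Aif1* (0.94). *C1qc* was most like *Ndrg1* (0.94), *Zfp36l1* (0.94) and *Gmfg* (0.94). *Cfp* was nearest to *C1qb* (0.94), *Lrrfip1* (0.94) and *C1qc* (0.93), so that C1q genes were among its closest.

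*Cfb* was nearest to *Oasl1* (0.98), *Gbp2* (0.97) and *Zup1* (0.97), of which the former pair are interferon-induced genes, and *C3* to *Nfil3* (0.94), *Birc3* (0.93) and *Ms4a6b* (0.92). *C5ar1* was nearest to *Pf4* (0.93), *Orai2* (0.91) and *Sash1* (0.91). *C3ar1* had lower values, 0.88 for *Timp2*, 0.87 for *Hal* and 0.86 for *Uap1l1*. With each gene centred within each library, which removes the difference between libraries, none of the 3 genes nearest to *Cfb* or to *C3* stayed among the 3, 1 of 3 stayed for *C1qa*, *C1qc*, *Cfp* and *C3ar1*, and 2 of 3 stayed for *C1qb* and *C5ar1*.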

How the data were processed

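Single-cell RNA of BMDMs was measured in 3 libraries (Ctrl, LP1 and LP4) with the 10x 3' kit. The authors made the UMI counts with Cell Ranger (7.1.0 per the file headers) on the mm10 mouse reference and deposited them without normalization, as whole numbers per gene and called barcode. They were used as counts: summed over kept cells per library, scaled to CPM and compared by log2 ratios. Exact Poisson (CPM), conditional binomial (ratios, odds ratios) and Clopper-Pearson (shares) intervals at 95% cover counting error only. A count of 0 in the text is given the limit that 3 counts allow, while plots show the exact Poisson bound. The depth of 35688939 to 61402275 kept UMIs sets these intervals. The ratio code was tested on simulated data.

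For clustering, 2000 variable genes, with at least 200 UMIs and with levels within 1.5 times of each other in the 3 libraries, were log-normalised to 10000 per cell, centred within each library and clipped at 10 SD. They went through 30 principal components, 20 neighbours and Leiden at a resolution of 0.5 (seed 20). A cluster was named by 3 fixed markers among its 10 leading genes, or 3 macrophage markers in 50% of cells, unless its cells were shallow. The doublet caller marked 2 cells in all and was taken not to have worked, so no doublets were removed; leaving out the 5% highest scores was an alternative. Motifs were searched in the RefSeq promoter table, and gene positions are those of GENCODE vM21.

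The members, lists, motifs and tests were chosen with earlier results of these data known. Named genes were the members, pathway genes past 2-fold at 10 CPM, and the 3 genes most like each member; other genes of the list are named to account for it, and 1 gene is counted there but not reported here. Alternatives were other cell filters, scalings (TMM, median of ratios, other totals), means of cell shares, cell subsets, thinning depths and resolutions. The clustering used scanpy 1.11.5 with igraph 0.11.9 and scikit-learn 1.9.0, and intervals scipy 1.17.1, under Python 3.11.15 (numpy 2.4.6, pandas 2.3.3). TMM factors came from edgeR 4.0.16 in R 4.3.3, which ran no test.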

Additional observations from a re-analysis of the deposited data

Results flagged for a closer look

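*Cfb* had a log2 ratio to Ctrl of -0.64 in LP1 and 3.43 in LP4, opposite directions at the 2 times. *C1qbp* had 0.19 and -0.39 in the same order. Both ratios of each gene share the Ctrl library, and the difference between the times was not tested, since each is 1 library. The LP1 ratio of *Cfb* rests on 86 against 91 UMIs, at levels that cannot be told apart from free RNA. By cluster it was below 0 in 4 of 6 and above 0 in 2, and 1 interval, that of B, lay below 0.

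*C3* differed in direction between clusters in LP4 over Ctrl, with counting intervals on opposite sides of 0: -0.32 in cluster B, against 0.62 in C and 1.15 in D. The ratio of D rests on 16 Ctrl and 67 LP4 UMIs, and that of C on 43 and 274. With no background level for *C3*, the part of free RNA in these levels was not tested. The interval of B ends at -0.003. TMM and median-of-ratios scaling raise LP4 over Ctrl by 0.17 and 0.21, so that it would hold 0, and the direction in B depends on scaling. B held 31.9% of Ctrl cells and 11.5% of LP4 cells, and C 13.7% and 33.9%. At a resolution of 0.3, 1 cluster was led by genes of both, such as *Egr3* and *Apoe* of B and *F13a1* and *Ms4a4a* of C. There *C3* had -0.30 with its interval below 0, against 1.10 in the cluster led by *Mgll*. That setting thus cannot show a contrast of B with C. At a resolution of 0.8, 2 of the 9 intervals compared lay above 0 and 1 below, with the highest ratio, 1.41, in the cluster led by *Mgll*. Cells of a cluster come from 1 library per condition, so the difference in direction was not tested either.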

How the results depend on the processing

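The counts of members past 2-fold, 0 in LP1, 3 in LP4 and 1 in LP4 over LP1, stayed within 1.5 times under all alternatives run. The count of pathway genes past 2-fold in LP4 over LP1 was 1 of 17, where 16.3% of the 8103 genes were. It was 3 when genes with at least 1 CPM were read, with *C1ra* and *Vsig4* added. No share over all genes was taken at 1 CPM, so that count has no background. TMM and median-of-ratios scaling raised the median log2 ratio of all genes in LP4 over Ctrl by 0.17 and 0.21, in LP1 by 0.07 and 0.08, and in LP4 over LP1 by 0.10 and 0.13, and each moved 16 of the 24 member ratios out of their counting intervals. In LP4 over Ctrl the split of all genes past 2-fold went from 851 higher and 806 lower to 1066 and 586 with TMM and 1130 and 552 with median of ratios, and in LP1 from 62 and 41 to 86 and 28 and to 86 and 26. In LP4 over LP1 it went from 696 and 628 to 827 and 488 with median of ratios. Besides *C3*, the sign of *C5ar1* in LP4 over LP1 depends on scaling, at -0.06, 0.04 (TMM) and 0.07 (median of ratios). No ratio past 2-fold changed direction; that of *Cfb* in LP4 over Ctrl lay between 3.15 and 3.63 and that of *C1qa* between -1.43 and -1.20. Shares of cells moved with thinning depth in 22 of 24 values at 1000 UMIs and in 24 at 4000, as depth sets them. At 4000 *C5ar1* was lowest in Ctrl, where it was highest at 2000, and *Cfp* was at 37.4% in both Ctrl and LP1. No paired analysis was possible because each group holds 1 library. With 1 library per condition, the spread between cultures was not measured.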
